A study of Mus musculus with 8 samples.

Results

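The endoplasmic reticulum (ER) folds, assembles and exports every secreted and surface protein of a B cell, antibody included. Described here are 40 genes of this machinery in germinal centre (GC) B cells, chosen by name: ER chaperones, disulfide isomerases, the translocon, ER-associated degradation, the COPII coat and the factors of the unfolded protein response. All 40 were among the 23469 gene symbols of both deposited tables, with 1 entry each. Of these, 35 had 1 RPKM or more in at least 2 libraries and entered the test, among 6446 genes that did so. RPKM are mapped reads scaled by transcript length and library total, so levels can be compared between genes per length.

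After antigen contact, GC B cells divide, mutate their antibody genes and compete for survival by the antibody they make. The libraries came from C57BL/6 mice that carried a Cre allele and were Irf8flox/flox (Irf8 cKO) or Irf8+/+ (Ctrl), taken on day 13 of a response to NP-KLH, a carrier protein bearing a small hapten. Cells positive for B220 with high FAS and GL7 were sorted. Cre, which was present in Ctrl as well, was on 1 allele in all animals and drives deletion in the B lineage. Each of 2 experiments gave 1 library per genotype (n = 2 per group), and the sources used here do not say whether these were pools or single animals. The p-values therefore rest on the spread between these libraries, which may be technical. As deposited, that spread was taken from genes of similar level and not from each gene alone. The series also holds 4 libraries of B cells cultured with lipopolysaccharide, which were not analysed here.

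When unfolded protein builds up in the ER, sensors in its membrane signal to the nucleus. IRE1 (gene Ern1) splices the Xbp1 mRNA, ATF6 is cut to release a transcription factor, and PERK (gene Eif2ak3) slows translation and favours ATF4, which can induce CHOP (gene Ddit3). XBP1 and ATF6 induce chaperone and degradation genes, in part through promoter elements named ERSE, ERSE-II and UPRE. In the B lineage this programme is best known from plasma cells, whose ER expands to secrete antibody. GC B cells secrete little antibody and carry it mainly as a surface receptor.

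The promoter elements are shown because they are a feature of the members that the values measured here did not use. The members were chosen by name as genes of this response, so the shares below are not independent of that choice. RefSeq promoters of GRCm38.p6, the assembly of the deposited mm10 coordinates, were found for 33 of the 40 members, each from 250 bases before to 50 bases after a transcription start. The entries not found were those of Hyou1, Manf, Derl1, Sec61a1, Ssr2, Atf6 and Mzb1. The ERSE, searched on both strands as CCAAT and CCACG with 9 bases of any kind between them, lay in the promoters of 9 members (27.3% of 33), against 37 of 27025 genes (0.137%). The lines below give each copy on the strand that reads the element in that order, with its fixed bases in capitals and 6 bases on either side.
Hspa5, chr2:34772025-34772043: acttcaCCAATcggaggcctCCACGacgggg
Hsp90b1, chr10:86705638-86705656: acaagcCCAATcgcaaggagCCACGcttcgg
Hsp90b1, chr10:86705533-86705551: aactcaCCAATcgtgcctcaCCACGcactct
Dnajc3, chr14:118937827-118937845: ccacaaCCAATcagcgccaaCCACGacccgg
Creld2, chr15:88819520-88819538: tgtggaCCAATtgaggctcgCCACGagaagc
Calr, chr8:84847075-84847093: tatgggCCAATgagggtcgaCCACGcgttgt
Canx, chr11:50325800-50325818: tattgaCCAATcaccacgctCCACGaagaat
Pdia6, chr12:17266491-17266509: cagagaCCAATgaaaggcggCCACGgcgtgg
Syvn1, chr19:6046532-6046550: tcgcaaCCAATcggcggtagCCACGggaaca
Derl3, chr10:75893242-75893260: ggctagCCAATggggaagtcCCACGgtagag
Hsp90b1 held 2 copies and the other members 1 each, ending between 25 bases (Syvn1) and 193 bases (the first Hsp90b1 copy) from the start. The copies of Calr, Creld2, Derl3 and the second copy of Hsp90b1 read on the strand opposite to the gene. The genes span chaperones, the lectins, a disulfide isomerase and the degradation ligase.

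The shorter ERSE-II, searched as ATTGG and CCACG with 1 base of any kind between them, lay in the promoters of 2 members, against 12 of 27025 genes (0.0444%). The UPRE, spelled TGACGTGG, lay in those of 2 members, against 193 genes (0.714%). These 3 elements were searched as exact letters and did not overlap one another in the members. A match is a description of the sequence, and no match says only that these letters are not in the window.
Herpud1, ERSE-II, chr8:94386377-94386387: gcgctgATTGGgCCACGttggac
Dnajb11, ERSE-II, chr16:22857852-22857862: gcggcgATTGGcCCACGcctggc
Txndc5, UPRE, chr13:38528045-38528052: cgccgcTGACGTGGcgctag
Sec24d, UPRE, chr3:123267470-123267477: ggcgccTGACGTGGcactag
The whole window of Hsp90b1, the only member with 2 copies of the ERSE, follows on the gene strand with the fixed bases of both copies in capitals (minus strand, chr10:86705395-86705694). The second copy reads in reverse complement there.
Hsp90b1: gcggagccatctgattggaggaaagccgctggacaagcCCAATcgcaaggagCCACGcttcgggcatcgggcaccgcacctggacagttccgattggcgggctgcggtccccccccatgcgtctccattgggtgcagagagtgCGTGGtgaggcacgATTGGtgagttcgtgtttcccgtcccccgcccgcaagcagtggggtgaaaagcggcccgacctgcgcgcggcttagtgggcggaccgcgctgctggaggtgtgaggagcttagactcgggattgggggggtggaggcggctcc

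The libraries set limits on every value below. The spacing of low values gave read totals, which were estimated at 76.1 M in Irf8 cKO 1, 63.8 M in Irf8 cKO 2, 73.4 M in Ctrl 1 and 63.2 M in Ctrl 2. Annotated exons outside the ribosomal precursor Rn45s held 10.6% and 7.07% of these in the libraries labelled Irf8 cKO, against 12.7% and 11.3% in Ctrl. Irf8 cKO 2 stood apart, with Rn45s at 16716 RPKM, against 8589 in Irf8 cKO 1, 9085 in Ctrl 1 and 5887 in Ctrl 2. It had 4845 genes at 1 RPKM or more, against 6171, 6566 and 6433 in those libraries. Irf8 itself measured 20.6 and 11.6 RPKM in the libraries labelled Irf8 cKO, against 14.5 and 14.9 RPKM in Ctrl, and the groups overlapped. After a median-of-ratios scaling, which sets the typical gene of the 4 libraries equal, Irf8 stood at 19.3 and 17.0 in the libraries labelled Irf8 cKO, against 11.8 and 13.0 in Ctrl. On that scale it was higher in both libraries labelled Irf8 cKO, with a log2 ratio of 0.51 ± 0.17, against 0.077 ± 0.35 as deposited (SE; adjusted p = 0.477 and 0.880, limma). The Irf8 value covers all exons, and the position of the loxP sites was not known here, so it does not check the genotype, and directions are those of the libraries as labelled. Values of a group are given for experiment 1 and then experiment 2.

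None of the 35 tested members was called higher or lower in the libraries labelled Irf8 cKO. The test was limma with the experiment as a block, at a Benjamini-Hochberg adjusted p under 0.05. Over all 6446 tested genes the same test called 70 lower (1.09%) and 6 higher (0.0931%). In the deposited RPKM 34 of the 35 log2 ratios were below 0, as were 92.4% of all tested genes. Both experiments gave a ratio below 0 for 30 members and above 0 for none, against 71.2% and 2.75% of all tested genes. The median log2 ratio was -0.47 over the members and -0.35 over all tested genes. At an unadjusted p under 0.05 there were 4 lower members and none higher, against 18.6% of all tested genes lower. Among these members Sec61g reached 1 RPKM only in Ctrl, so it entered the test through the group where it was high. The lowest adjusted p among the members was 0.185, for Txndc5. A log2 ratio here is Irf8 cKO over Ctrl of RPKM + 1, so it understates the change of low genes.

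Because most tested genes lay below 0, ratios were also taken after the median-of-ratios scaling. The median log2 ratio was then -0.081 over the members and -0.035 over all tested genes, with 24 members below 0 and 11 above. Of the 35 members, 10 changed sign between the deposited and the scaled values. The scaled ratios of the members ran from -0.44 (Txndc5) to 0.44 (Pdia4), against -1.92 to 1.64 over all tested genes. After scaling 0 members and 0 of all tested genes passed in limma, and at an unadjusted p under 0.05 there was 1 lower member, Txndc5, against 380 lower (5.9%) and 279 higher genes (4.33%) over all. In the deposited RPKM both libraries labelled Irf8 cKO lay below both Ctrl libraries for 17 of 35 members, close to the 44.7% of all tested genes that did so. Sec61g, which entered the test through Ctrl alone, is among these members. After scaling the groups did not overlap for 5 lower members (background 18.4%) and 3 higher ones (background 13%).

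**Figure D1:**
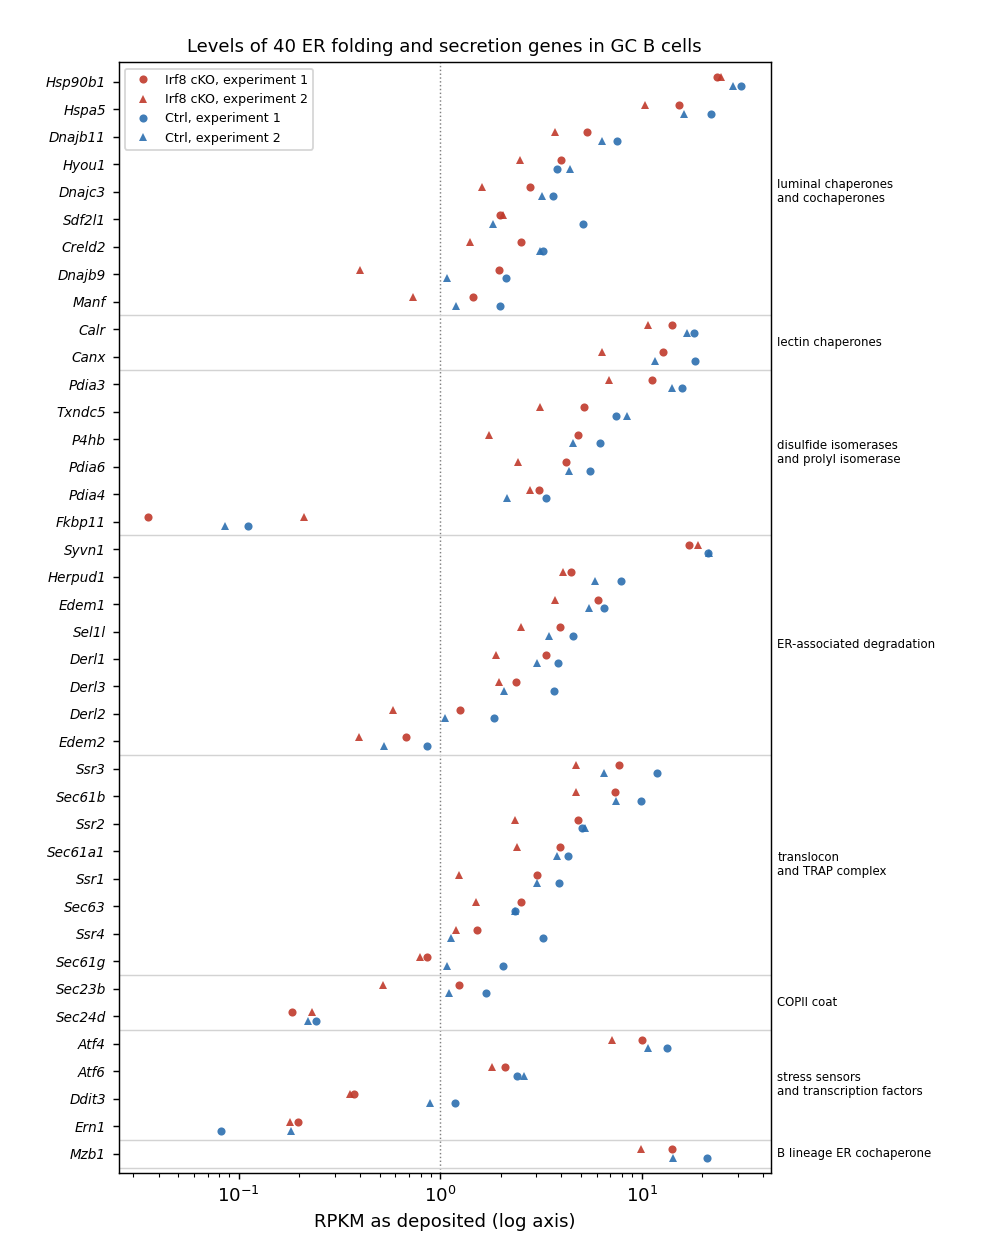
RPKM as deposited (log axis) of the 40 genes in each library, by role and by mean level within a role; red marks Irf8 cKO, blue marks Ctrl, circles experiment 1 and triangles experiment 2, and the dotted line is 1 RPKM. The red triangles of experiment 2 lie leftmost for most genes, and the 5 genes under the line in 3 or more libraries were not tested.

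The most abundant member was a luminal chaperone gene, while the 9 genes of that role had a median level of 2.81 RPKM, against 3.67 RPKM over the 35 tested members. Hsp90b1, which encodes the ER HSP90 GRP94 needed for folding of several Toll-like receptors and integrins, measured 23.7 and 24.8 RPKM in the libraries labelled Irf8 cKO, against 31.1 and 28.5 RPKM in Ctrl. With a mean of 27.0 RPKM over the 4 libraries it ranked 161 of 6446 tested genes. As deposited the Irf8 cKO values lay below both Ctrl values, and after scaling they overlapped, with log2 ratios of -0.18 in experiment 1 and 0.52 in experiment 2. Over both experiments the fit gave -0.28 ± 0.35 with deposited and 0.17 ± 0.23 with scaled values (SE; adjusted p = 0.576 and 0.807, limma). The HSP70 of the ER, BiP, is encoded by Hspa5 and measured 15.3 and 10.4 RPKM in the libraries labelled Irf8 cKO, against 22.0 and 16.2 RPKM in Ctrl. The deposited values gave a log2 ratio of -0.54 and the scaled values -0.11.

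The helpers of BiP stood lower. Dnajb11, Dnajc3 and Dnajb9 encode J-domain cochaperones, Hyou1 an HSP110-like exchange factor, and Sdf2l1, Manf and Creld2 luminal proteins induced in ER stress. Their means over the 4 libraries ran from 1.34 RPKM (Manf) to 5.73 RPKM (Dnajb11). Dnajb11, Dnajc3 and Creld2 lay lower in both libraries labelled Irf8 cKO than in both Ctrl libraries on either scale. Of all tested genes 44.7% did so as deposited and 18.4% after scaling. For Dnajb11, Dnajc3 and Creld2 the scaled log2 ratios were -0.14, -0.16 and -0.21, with adjusted p of 0.752, 0.710 and 0.640 (limma). Sdf2l1 measured 1.97 and 2.05 RPKM in the libraries labelled Irf8 cKO, against 5.12 and 1.83 RPKM in Ctrl. Ctrl 1 alone was high for this gene. Its scaled log2 ratio was -0.86 in experiment 1 and 0.62 in experiment 2. Over the 9 genes of this group the median scaled log2 ratio was -0.12, with 7 below 0.

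The lectin chaperones calreticulin (Calr) and calnexin (Canx) hold newly made glycoproteins in a folding cycle. Calr measured 14.1 and 10.7 RPKM in the libraries labelled Irf8 cKO, against 18.1 and 16.8 RPKM in Ctrl. For Calr the fitted log2 ratio came to -0.47 ± 0.35 on the deposited scale and -0.036 ± 0.17 on the scaled one (SE; adjusted p = 0.377 and 0.953, limma). Canx measured 12.8 and 6.36 RPKM in the libraries labelled Irf8 cKO, against 18.4 and 11.7 RPKM in Ctrl, and the groups overlapped. For Canx it came to -0.64 ± 0.34 and -0.21 ± 0.16 (adjusted p = 0.279 and 0.654).

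The disulfide isomerases held both ends of the range. Txndc5, which encodes the thioredoxin-domain protein ERp46 and is abundant in plasma cells, measured 5.15 and 3.13 RPKM in the libraries labelled Irf8 cKO, against 7.47 and 8.50 RPKM in Ctrl. The groups did not overlap as deposited or after scaling. Its group means were 4.14 ± 1.43 RPKM in the libraries labelled Irf8 cKO and 7.99 ± 0.727 RPKM in Ctrl (SD, n = 2 each). The fitted ratio came to -0.83 ± 0.32 on the deposited scale and -0.44 ± 0.16 on the scaled one (SE; adjusted p = 0.185 and 0.477, limma), below 0 in both experiments on either scale. Of the members with a UPRE copy shown above, it is the one that reached 1 RPKM in at least 2 libraries and was tested. In a fit without a trend of the variance on the level its adjusted p was 0.0365, where 4.3% of all tested genes were called lower. When Irf8 cKO 1 was left out, Txndc5 was among 6 members called lower, where 22.5% of all tested genes were.

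Pdia3, the ERp57 partner of calreticulin and calnexin, measured 11.3 and 6.91 RPKM in the libraries labelled Irf8 cKO, against 15.9 and 14.2 RPKM in Ctrl. The groups did not overlap on either scale, and the scaled log2 ratio was -0.27 in experiment 1 and -0.28 in experiment 2. Over both, the fit gave -0.70 ± 0.34 with deposited and -0.28 ± 0.15 with scaled values (SE; adjusted p = 0.253 and 0.579, limma). P4hb, the canonical protein disulfide isomerase, measured 4.82 and 1.74 RPKM in the libraries labelled Irf8 cKO, against 6.23 and 4.55 RPKM in Ctrl. Its groups overlapped, and the fit gave -0.66 ± 0.31 with deposited and -0.32 ± 0.16 with scaled values (adjusted p = 0.239 and 0.547).

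Pdia4, the isomerase ERp72, went the other way. It measured 3.10 and 2.79 RPKM in the libraries labelled Irf8 cKO, against 3.35 and 2.14 RPKM in Ctrl. It was the only tested member above 0 as deposited, at 0.094 ± 0.29, and the highest after scaling, at 0.44 ± 0.21 (SE; adjusted p = 0.824 and 0.533, limma). By experiment the scaled ratio was 0.064 and 0.82, so the value rests mainly on experiment 2. Pdia6, another isomerase, lay at -0.12 after scaling. The prolyl isomerase gene Fkbp11, known from secretory cells, measured 0.0355 and 0.212 RPKM in the libraries labelled Irf8 cKO, against 0.111 and 0.0857 RPKM in Ctrl, which is an estimated 1.98 and 9.91 reads against 5.97 and 3.97 reads, and was not tested. In the authors' deposited table, which compares 1 library with 1 library, the members under an unadjusted p of 0.05 were Sdf2l1 in experiment 1 (p = 0.0168, log2 ratio -1.17) and Pdia4 in experiment 2 (p = 0.0217, log2 ratio 1.11). By the authors' deposited table, of all tested genes 2.85% were lower and 1.78% higher at that level in experiment 1, and 1.95% lower and 1.66% higher in experiment 2. The authors' log2 ratios are taken without the added 1 and carry an offset, so their size cannot be set beside the other ratios given here.

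**Figure D2:**
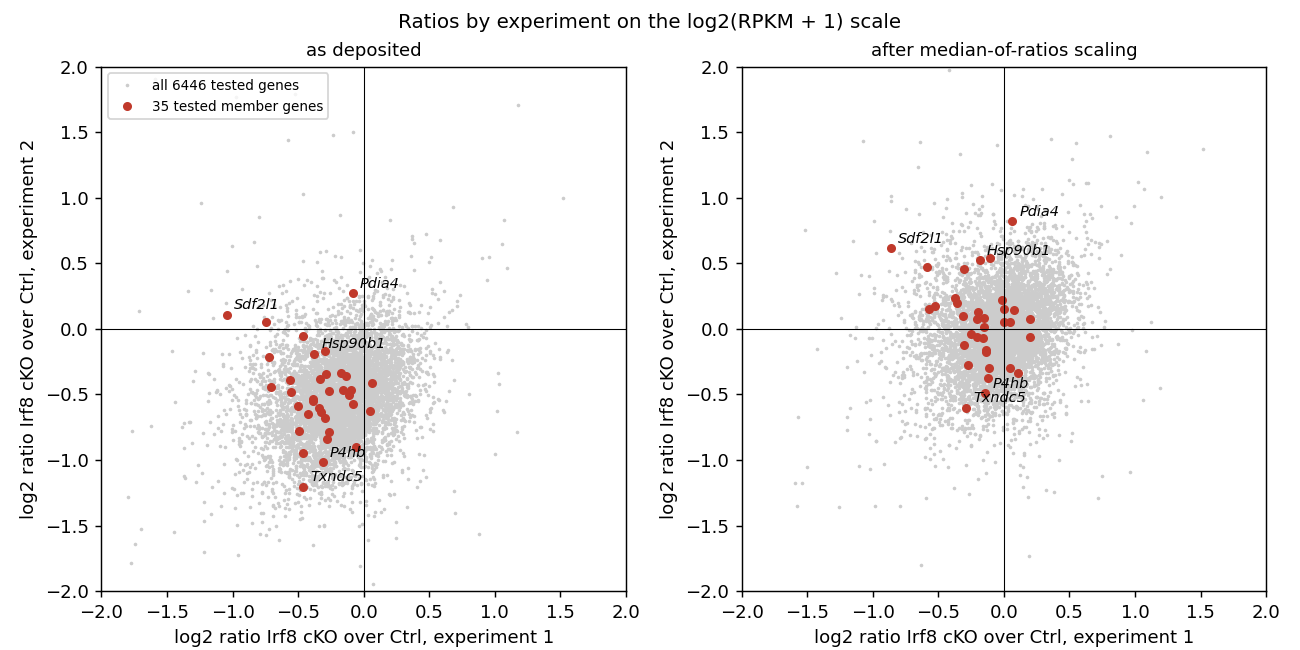
Log2 ratio of Irf8 cKO over Ctrl in experiment 1 (horizontal) and experiment 2 (vertical) for the 35 tested members (red) and all 6446 tested genes (grey, those beyond 2 log2 units outside the frame), as deposited on the left and after median-of-ratios scaling on the right. Most members lie within the grey cloud in both panels; Txndc5 and P4hb are lowest in experiment 2, and Sdf2l1 and Pdia4 lie apart at the upper left and the top.

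In ER-associated degradation, misfolded proteins are brought to ubiquitin ligases in the ER membrane and extracted. Syvn1, the ligase HRD1, was the most abundant member of this group, with 17.2 and 19.1 RPKM in the libraries labelled Irf8 cKO, against 21.4 and 21.6 RPKM in Ctrl. As deposited its groups did not overlap, and after scaling the log2 ratio was -0.10 in experiment 1 and 0.54 in experiment 2. Over both, the fit gave -0.23 ± 0.35 with deposited and 0.22 ± 0.21 with scaled values (SE; adjusted p = 0.646 and 0.739, limma). The annotated span of Syvn1 overlaps that of Mrpl49 on the opposite strand. Reads in exons that both share cannot be told apart unless strand was used in counting, which no source states. How much exon sequence is shared was not measured. The same holds for Pdia6 with Atp6v1c2 and for Ddit3 with Mars.

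The other genes of degradation stood below 6 RPKM on average. Sel1l, the partner of HRD1, averaged 3.63 RPKM over the 4 libraries, and the channel proteins Derl1, Derl2 and Derl3 averaged 3.04, 1.19 and 2.52 RPKM. Edem1, which encodes a mannosidase-like factor that directs glycoproteins to degradation, measured 6.04 and 3.69 RPKM in the libraries labelled Irf8 cKO, against 6.52 and 5.47 RPKM in Ctrl. Its scaled log2 ratio was 0.11 ± 0.14 (SE; adjusted p = 0.801, limma), above 0 in both experiments. Derl1 lay at 0.027 ± 0.14 (adjusted p = 0.962), with 3.3e-05 in experiment 1, which is no difference, and 0.053 in experiment 2. As deposited Edem1 and Derl1 lay below 0, at -0.28 and -0.31. Herpud1, whose product recruits the HRD1 complex, measured 4.47 and 4.06 RPKM in the libraries labelled Irf8 cKO, against 7.91 and 5.89 RPKM in Ctrl, with scaled log2 ratios of -0.52 and 0.17 by experiment. Of the 7 tested genes 2 lay below 0 after scaling, and the median was 0.077. Edem2, at 0.678 and 0.394 RPKM in the libraries labelled Irf8 cKO against 0.859 and 0.529 RPKM in Ctrl, was not tested.

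The translocon SEC61 is the channel through which nascent chains enter the ER, and the TRAP complex (Ssr1 to Ssr4) assists it. The mean RPKM over the 4 libraries was 3.61 for Sec61a1, 7.37 for Sec61b and 1.20 for Sec61g, and 2.80, 4.36, 7.71 and 1.77 for Ssr1, Ssr2, Ssr3 and Ssr4. The subunit genes of 1 complex thus differed several-fold in RPKM. The part of transcript length and of cDNA amplification in these differences was not tested. Ssr3 measured 7.73 and 4.73 RPKM in the libraries labelled Irf8 cKO, against 11.9 and 6.51 RPKM in Ctrl, a scaled log2 ratio of -0.068 ± 0.19 (SE; adjusted p = 0.923, limma). Ssr1 measured 3.04 and 1.25 RPKM in the libraries labelled Irf8 cKO, against 3.91 and 3.02 RPKM in Ctrl. Ssr1 had a fitted log2 ratio of -0.56 ± 0.29 on the deposited scale and -0.25 ± 0.15 on the scaled one (adjusted p = 0.266 and 0.595), below 0 in both experiments.

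Sec61a1, the pore subunit, measured 3.91 and 2.40 RPKM in the libraries labelled Irf8 cKO, against 4.32 and 3.82 RPKM in Ctrl. Sec63, a J-domain partner of the channel, measured 2.50 and 1.51 RPKM in the libraries labelled Irf8 cKO, against 2.35 and 2.34 RPKM in Ctrl. Their scaled log2 ratios were 0.050 ± 0.14 and 0.14 ± 0.14 (SE; adjusted p = 0.923 and 0.752, limma), and both lay below 0 as deposited, at -0.31 and -0.17. Of the COPII coat genes, which bud vesicles from the ER, Sec23b measured 1.24 and 0.521 RPKM in the libraries labelled Irf8 cKO, against 1.69 and 1.11 RPKM in Ctrl. The fit gave -0.37 ± 0.23 with deposited and -0.15 ± 0.14 with scaled values (adjusted p = 0.319 and 0.721). Sec24d, its cargo-binding partner, stayed at 0.183 to 0.243 RPKM in the 4 libraries.

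Among the stress factors, Atf4 was the most abundant, with 9.99 and 7.09 RPKM in the libraries labelled Irf8 cKO, against 13.4 and 10.7 RPKM in Ctrl. The groups did not overlap as deposited and overlapped after scaling, with log2 ratios of -0.46 ± 0.34 and -0.036 ± 0.17 (SE; adjusted p = 0.379 and 0.951, limma). Atf6 averaged 2.23 RPKM and lay at 0.077 after scaling. Ern1 measured 0.197 and 0.180 RPKM in the libraries labelled Irf8 cKO, against 0.0821 and 0.182 RPKM in Ctrl. Splicing of Xbp1 and cleavage of ATF6 are not seen in a gene total, so these values do not measure the activity of the sensors.

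Ddit3, which encodes the stress factor CHOP, was lower in level, and its groups lay apart. It measured 0.375 and 0.358 RPKM in the libraries labelled Irf8 cKO, against 1.19 and 0.887 RPKM in Ctrl, so that both libraries labelled Irf8 cKO lay below both Ctrl libraries, also after scaling. These values stand for an estimated 25.4 and 20.3 reads in the libraries labelled Irf8 cKO, against 77.4 and 49.8 reads in Ctrl. Only 1 library reached 1 RPKM, so Ddit3 was not among the tested genes. In the fit over 15557 genes with no filter its log2 ratio was -0.57 ± 0.23 (SE; adjusted p = 0.358, limma), where 0 genes passed and 1694 were lower at an unadjusted p under 0.05. The gap was thus not past the threshold.

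Mzb1, a cochaperone of GRP94 known from marginal zone B and plasma cells, measured 14.1 and 9.89 RPKM in the libraries labelled Irf8 cKO, against 21.1 and 14.2 RPKM in Ctrl. The fit gave -0.52 ± 0.35 with deposited and -0.081 ± 0.20 with scaled values (SE; adjusted p = 0.342 and 0.901, limma). Plasma cell genes in the libraries bear on this gene, on Txndc5 and on Derl3, which plasma cells express strongly. The 10 plasma cell markers found in the tables summed to 36.5 and 25.3 RPKM in the libraries labelled Irf8 cKO, against 47.8 and 30.1 RPKM in Ctrl, and 6 of them were under 1 RPKM in every library. The 4 tested plasma cell markers were all below 0 as deposited, with a median log2 ratio of -0.23, and all above 0 after scaling, with a median of 0.18 (0.45 in experiment 2 and -0.20 in experiment 1). The J chain gene Igj was the largest single part of each sum, at 22.0 and 11.1 RPKM in the libraries labelled Irf8 cKO. In Ctrl it measured 28.9 and 15.6 RPKM. The defining markers Prdm1 and Sdc1 stayed between 0.285 and 0.457 RPKM and between 0.0428 and 0.209 RPKM, with overlapping groups as deposited. After scaling Prdm1 stood at 0.412 and 0.482 in the libraries labelled Irf8 cKO, against 0.233 and 0.399 in Ctrl, with no overlap, while Sdc1 still overlapped. The part of plasma cells in the member values was not tested. In bulk samples fewer cells of a type and less RNA per cell cannot be told apart. The 11 GC B cell markers used summed to 282.2 and 189.8 RPKM in libraries labelled Irf8 cKO, against 385.6 and 336.0 RPKM in Ctrl. Of the 11 tested, 1 was called lower as deposited and 0 after scaling (limma), where 1.09% and 0% of all tested genes were. T cell markers other than Lck were under 0.1 RPKM in every library. Of the myeloid markers, Csf1r, C1qa, C1qb and C1qc were under 0.1 RPKM in every library. The sum of all 10 stood at 24.5 and 9.27 RPKM in libraries labelled Irf8 cKO, against 75.3 and 16.9 RPKM in Ctrl. Of the 5 tested, 2 were called lower as deposited, beside 1.09% of all tested genes, and 0 after scaling. Ctrl 1 was the highest library here, as for Sdf2l1 and Ssr4, and the part of myeloid RNA in those values was not tested.

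Beyond the members, 124 other genes of the pathway were found in the tables and 94 were tested. Of these 0 passed in either direction, with 20 lower and 0 higher at an unadjusted p under 0.05 (limma, as deposited), where 18.6% and 0.264% of all tested genes were. After scaling 0 passed again, with 1 lower and 0 higher at that level, where 5.9% and 4.33% of all tested genes were. The median over these genes came to -0.41 with deposited and -0.078 with scaled values, beside -0.47 and -0.081 for the members. Xbp1, the splicing target of IRE1, measured 6.61 and 4.47 RPKM in the libraries labelled Irf8 cKO, against 9.23 and 6.05 RPKM in Ctrl (scaled log2 ratio 0.0050). Eif2ak3, the sensor PERK, measured 3.18 and 1.90 RPKM in the libraries labelled Irf8 cKO, against 4.39 and 4.12 RPKM in Ctrl. Its groups did not overlap, and its scaled log2 ratio was -0.25 (adjusted p = 0.584). The 5 tested genes of the PERK and ATF4 arm, among them the amino acid transporter gene Slc7a5 at -0.28, were all below 0 after scaling, as were 56.1% of all tested genes, and 3 of the 5 were below 0 in both experiments. Their median was -0.21, against -0.035 over all tested genes.

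In the other lists the genes with the largest scaled ratio of one sign in both experiments were mostly lower. Sec13, a COPII coat gene, measured 3.60 and 1.76 RPKM in the libraries labelled Irf8 cKO, against 5.37 and 4.51 RPKM in Ctrl. The ratio of Sec13 came to -0.73 with deposited and -0.39 with scaled values (adjusted p = 0.206 and 0.479, limma), the lowest adjusted p of the pathway lists after scaling. Sec11a of the signal peptidase measured 2.54 and 1.60 RPKM in the libraries labelled Irf8 cKO, against 5.86 and 2.90 RPKM in Ctrl, a scaled log2 ratio of -0.43. The scaled log2 ratio was -0.37 for Erp29 and -0.34 for Txndc12 among oxidative folding genes. It was -0.39 for Vcp, the extraction ATPase, and -0.33 for the ligase gene Rnf5. Sar1b of the COPII coat lay at -0.38, Serp1 of the translocon at -0.31, Tmbim6 at -0.23, Creb3 at -0.19 and the oligosaccharyltransferase gene Stt3b at -0.21. Creb3 reached 1 RPKM only in Ctrl, so it entered the test through the group where it was high. Prkcsh, the glucosidase II beta subunit, lay at 0.26, above 0 in both experiments after scaling and at -0.027 as deposited. None of these passed on either scale.

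**Figure D3:**
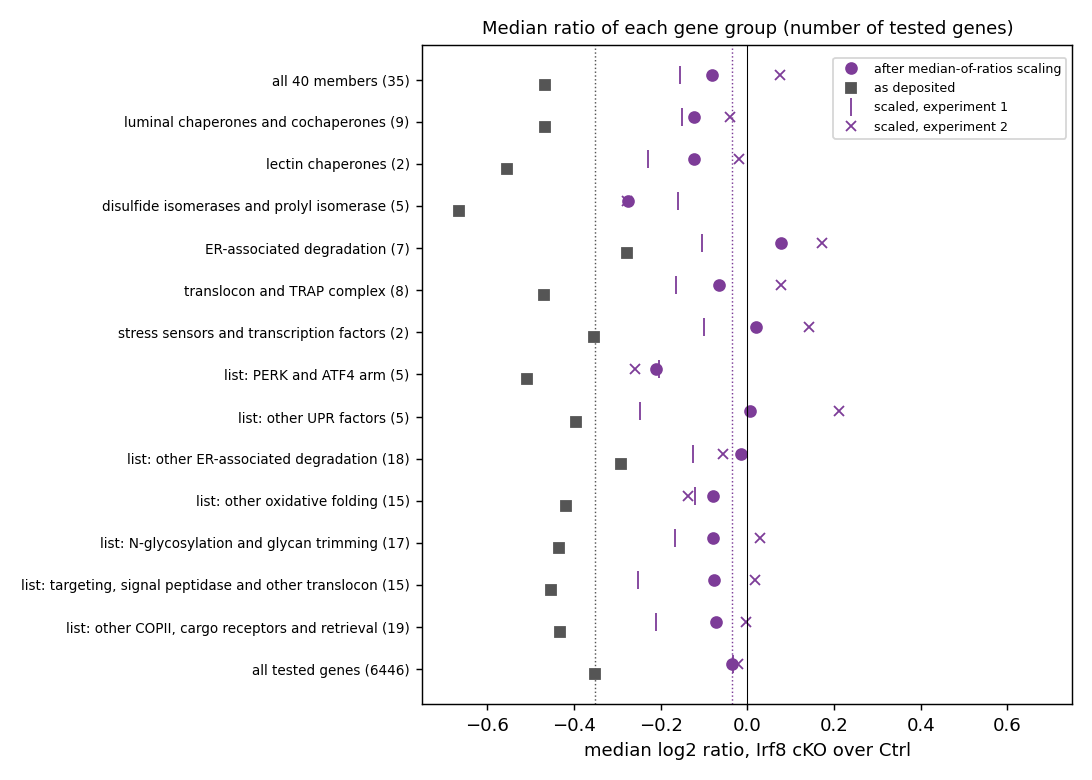
Median log2 ratio of Irf8 cKO over Ctrl for the members, for their roles with 2 or more tested genes, for 7 further pathway lists and for all tested genes (numbers in brackets); squares are as deposited, circles after median-of-ratios scaling, and bars and crosses the scaled medians of experiments 1 and 2. Dotted lines mark the medians of all tested genes, -0.35 and -0.035, and the isomerases lie lowest on both scales.

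The experiments differed in the direction they gave for the members. After scaling the median log2 ratio of the 35 members was -0.16 in experiment 1 and 0.075 in experiment 2, with 27 and 14 members below 0. Over all tested genes the medians were -0.034 and -0.023. For 19 members the scaled ratios of the experiments had opposite signs, and 11 were below 0 and 5 above 0 in both (Derl1, at 3.3e-05 in experiment 1, among them), against 33.2% and 25% of all tested genes. Across the 35 members the scaled ratios of experiments 1 and 2 had a Spearman rho of -0.28, and across all tested genes of 0.21. Genes of 1 library share its depth and amplification, so no p is given. The order of the members' levels was close in all pairs of libraries, with Spearman rho from 0.93 to 0.98.

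Transcript length went with the ratios in experiment 1. The Spearman rho of length with the scaled log2 ratio was 0.54 in experiment 1 and -0.20 in experiment 2 across the 35 members, and 0.29 and 0.051 across 6382 tested genes with a known length. The 12 shortest tested members, of 564 to 2175 bases, had a median scaled log2 ratio of -0.28 in experiment 1 and 0.14 in experiment 2. The 12 longest, of 3172 to 9333 bases, had medians of -0.0061 and 0.054. Among the short transcripts beside Sdf2l1, Ssr4 stood at 1.52 and 1.20 RPKM in the libraries labelled Irf8 cKO, against 3.23 and 1.13 RPKM in Ctrl. Sec61g measured 0.856 and 0.796 RPKM in the libraries labelled Irf8 cKO, against 2.06 and 1.08 RPKM in Ctrl. In each, Ctrl 1 stood above the other 3 libraries. Without Ctrl 1, and without the block, the members' median scaled log2 ratio was 0.057, with 13 below 0. The part of length in the members' ratios was not tested.

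**Figure D4:**
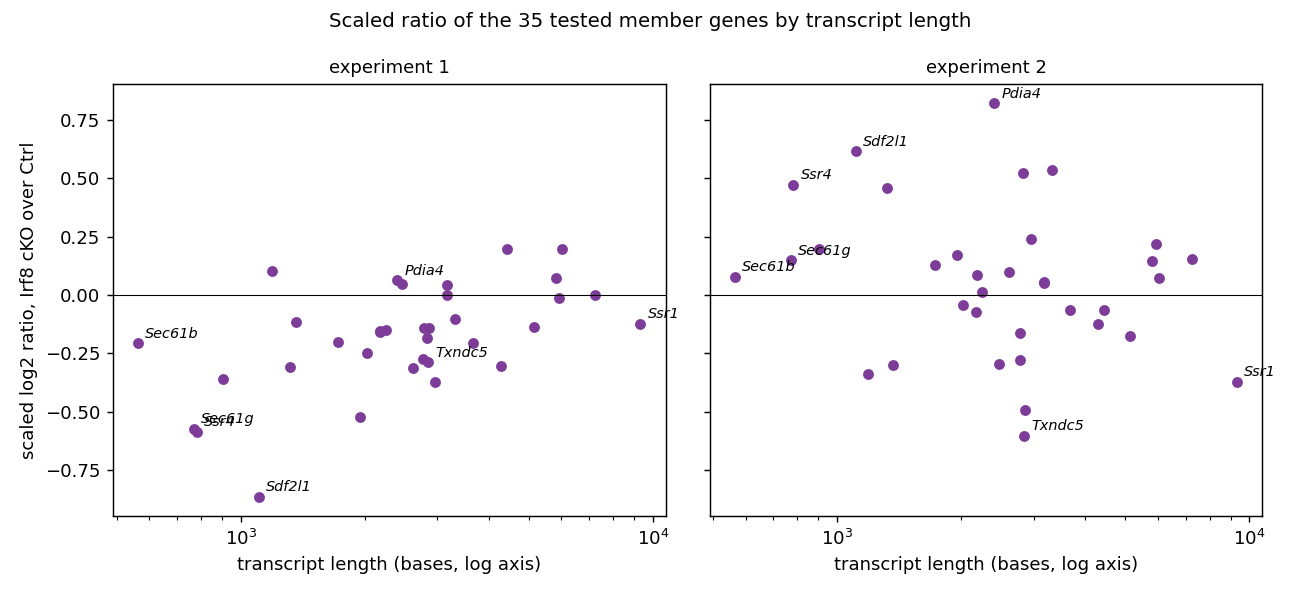
Scaled log2 ratio of Irf8 cKO over Ctrl (vertical) of the 35 tested members against transcript length in bases (log axis), for experiment 1 on the left and experiment 2 on the right. In experiment 1 the short transcripts Sdf2l1, Ssr4 and Sec61g lie lowest, and in experiment 2 the same genes lie above 0 while Txndc5 is lowest.

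The ratios can be set beside the promoter elements. The median scaled log2 ratio was -0.12 over the 11 tested members with an ERSE or ERSE-II and -0.12 over the 17 tested members with neither of these. The UPRE was not used for this split, and Txndc5, which holds one, is the lowest of the 17. The ratios ran from -0.21 to 0.22 in the set with an element and from -0.44 to 0.44 in the other set. Levels were higher in the first set, with a median of 5.73 RPKM over the 4 libraries, against 2.85 RPKM in the second. The 7 tested members with no promoter entry had a median of 3.61 RPKM. The 7 tested genes outside the members that hold an ERSE or ERSE-II had a median of 2.70 RPKM. These are descriptions of chosen genes, and no test was made.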

How the data were processed

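Per the labels' protocols, cDNA of the sorted cells was amplified (Ovation RNA-Seq System v2) before Nextera XT library preparation. The authors deposited 1 table per experiment with RPKM per RefSeq gene, made in Wardrobe per the series design text, and with a log2 ratio and an unadjusted p-value of their own for 1 library against 1 library, per the file headers. Builds mm9 and mm10 and the tools Cufflinks 2.2, Cuffdiff, TopHat2 2.0 and DESeq are listed without roles, per the submitters' processing notes. The authors' deposited log2 ratio exceeds that of the RPKM, taken without the added 1, by a fixed offset (0.205 and 0.721 for experiments 1 and 2). It is thus not on the scale of the log2 ratios as deposited given here. Each table has 23471 entries, and those of 2 shared symbols were summed.

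Reads per library were estimated from the spacing of RPKM times GENCODE transcript length in low genes. With these totals 71.5% to 75.1% of low values were whole within 0.1 reads, so no count model was run. Depths and reads are approximate. Size factors came from 11717 genes above 0 in all libraries. Genes with 1 RPKM or more in 2 or more libraries were tested in R 4.3.3 with limma 3.58.1 (eBayes with a variance trend, 2-sided) on log2(RPKM + 1), with the experiment as a block because each experiment has its own table. As deposited the prior degrees of freedom were infinite, so SE and p come from genes of similar level. After scaling they were 4.90. As a check of the pairing, deviations of same-numbered libraries from their group means correlated at 0.377 as deposited and 0.336 after scaling. The fit was run on simulated data with changes larger than any seen in the members. That run does not measure the power for changes of the members' size.

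The members and lists were chosen with earlier results of these data known. Named genes are, in each role, the most abundant member, the 5 lowest and the 5 highest scaled ratios of one sign in both experiments, and up to 2 genes per pathway list. Hspa5, Dnajb11, Dnajc3, Creld2, Sdf2l1, Herpud1, Ssr4, Sec61g and Ddit3 were singled out after their values were seen. Alternatives were the scaling, block, pseudocount, filter, variance trend and leaving out each library. Protein sequences were not used here. Python 3.11.15 with pandas 2.3.3, numpy 2.4.6 and matplotlib 3.10.9 served for the other steps. A marker gene of the GC B cell list is not reported here.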

Additional observations from a re-analysis of the deposited data

How the results depend on the processing

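No member passed as deposited, and 0 passed under the scalings, pseudocounts, filters and fits without the block that were run. The exceptions were the fit without a variance trend, with 1 lower member (Txndc5), and the fit without the library labelled Irf8 cKO 1, with 6 (Creld2, Dnajb9, P4hb, Ssr1, Ssr2 and Txndc5), or 17.1% of the 35 members against 22.5% of all tested genes called lower there. After scaling that fit called 0 members. Over leaving out each library, lower members numbered 0 to 6 and higher members 0.

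The members' median log2 ratio of -0.47 was -0.081 after median-of-ratios scaling, with or without the replicate block, -0.019 at an equal sum outside Rn45s, -0.24 with a pseudocount of 5 and -0.33 in experiment 1 alone. It was -0.036 with size factors from tested genes and -0.10 after scaling with a pseudocount of 0.1, both added after seeing the data. Leaving out 1 library gave -0.65 to -0.18 as deposited. After scaling it gave -0.061 without the library labelled Irf8 cKO 1, -0.055 without Irf8 cKO 2, 0.057 without Ctrl 1 and -0.20 without Ctrl 2. Members whose groups did not overlap numbered 17 lower and 0 higher as deposited, 5 and 3 after median-of-ratios scaling and 4 and 5 at an equal sum.

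Over all tested genes the 70 lower and 6 higher calls became 0 and 0 after scaling, 42 and 45 at an equal sum, 19 and 2 without the replicate block, and 2 and 1 without it after scaling. They became 124 lower with a pseudocount of 5, 277 lower without a variance trend, 0 and 0 with no filter, and 26 and 0 with a filter of 5 RPKM. Size factors from tested genes gave 3 and 1, and scaling with a pseudocount of 0.1 gave 0 and 0. Leaving out 1 library gave 0 to 1450 lower and 0 to 9 higher as deposited, and after scaling 57, 13, 7 and 10 lower and 59, 6, 6 and 3 higher without Irf8 cKO 1, Irf8 cKO 2, Ctrl 1 and Ctrl 2 in turn. Leaving out a library was fitted without the block, and the lone library of a group is assumed to vary like the other group. The cause of these shifts was not tested. With 1 residual degree of freedom and few reads for Fkbp11, Ddit3 and Sec61g, modest changes were not detectable.

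Directions of single genes, none of which passed the test as deposited or in the fit that turned it, turned as follows (log2 ratios). Median-of-ratios scaling, with or without the replicate block, gave Hsp90b1 0.17, Syvn1 0.22, Sec63 0.14, Edem1 0.11, Sec61a1 0.050, Derl1 0.027, Prkcsh 0.26, Hyou1 0.067, Sel1l 0.10, Derl3 0.077 and Atf6 0.077. An equal sum gave Hsp90b1 0.25, Calr 0.039, Syvn1 0.29, Ssr3 0.0046, Atf4 0.036, Sec63 0.19, Edem1 0.18, Sec61a1 0.11, Derl1 0.087, Prkcsh 0.31, Hyou1 0.13, Sel1l 0.17, Derl3 0.14, Sec61b 0.0066, Ssr4 0.0035 and Atf6 0.13. Size factors from tested genes gave Hsp90b1 0.22, Calr 0.016, Syvn1 0.27, Atf4 0.014, Sec63 0.17, Edem1 0.16, Sec61a1 0.093, Derl1 0.068, Prkcsh 0.29, Hyou1 0.11, Sel1l 0.15, Derl3 0.12 and Atf6 0.12. Scaling with a pseudocount of 0.1 gave Hsp90b1 0.17, Syvn1 0.22, Sec63 0.19, Edem1 0.13, Sec61a1 0.062, Derl1 0.035, Prkcsh 0.39, Hyou1 0.085, Sel1l 0.13, Derl3 0.11 and Atf6 0.10. After scaling, leaving out Irf8 cKO 1 gave Hsp90b1 0.51, Calr 0.082, Syvn1 0.59, Atf4 0.030, Sec63 0.11, Edem1 0.081, Sec61a1 0.026, Prkcsh 0.30, Hyou1 0.054, Sdf2l1 0.12, Herpud1 0.034, Sel1l 0.11, Derl3 0.21, Ssr4 0.037 and Atf6 0.23. Leaving out Irf8 cKO 2 gave P4hb 0.0019, Sec63 0.17, Edem1 0.14, Sec61a1 0.073, Derl1 0.094, Rnf5 0.060, Prkcsh 0.21, Hyou1 0.080, Dnajb9 0.29, Manf 0.024, Sel1l 0.10 and Ssr2 0.043. Leaving out Ctrl 1 gave Hsp90b1 0.18, Syvn1 0.16, Ssr3 0.27, Atf4 0.063, Mzb1 0.14, Canx 0.044, Sec63 0.10, Edem1 0.17, Sec61a1 0.079, Derl1 0.12, Tmbim6 0.023, Rnf5 0.066, Prkcsh 0.23, Serp1 0.050, Hspa5 0.055, Dnajb9 0.12, Sdf2l1 0.37, Manf 0.11, Sel1l 0.22, Derl2 0.057, Derl3 0.33, Sec61b 0.077, Sec61g 0.019, Ssr4 0.38 and Atf6 0.0036. Leaving out Ctrl 2 gave Hsp90b1 0.16, Syvn1 0.27, Sec63 0.17, Edem1 0.046, Sec61a1 0.020, Prkcsh 0.28, Hyou1 0.18 and Atf6 0.15. As deposited, leaving out 1 library turned Pdia4, Sec63, Edem1, Prkcsh, Dnajb9, Irf8, Sdf2l1, Derl3 and Ssr4. Their ranges over the libraries left out were -0.14 to 0.33 for Pdia4, -0.41 to 0.068 for Sec63, -0.57 to 0.013 for Edem1, -0.18 to 0.13 for Prkcsh, -0.31 to 0.46 for Irf8, -0.87 to 0.21 for Dnajb9, -1.02 to 0.087 for Sdf2l1, -0.56 to 0.045 for Derl3 and -0.84 to 0.15 for Ssr4.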

Other observations

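Of the tested genes that are no members, 7 had an ERSE or ERSE-II in the promoter window, a set found after the values were seen. They were Alg12 and Krtcap2, which act in N-glycosylation, Nucb1, a calcium-binding protein of the secretory pathway, and Hnrnpa3, Lrif1, Pan2 and Rbm39. Over these genes the median came to -0.41 with deposited and -0.15 with scaled values, and 4 were below 0 on the scaled values. Alg12, a mannosyltransferase gene, was lowest. It measured 1.04 and 0.549 RPKM in the libraries labelled Irf8 cKO, against 2.42 and 1.82 RPKM in Ctrl, and the groups did not overlap. The scaled log2 ratio of Alg12 was -0.56 (adjusted p = 0.424, limma). Its annotated start, chr15:88819318 on the minus strand, lies near the copy printed for the member Creld2 (chr15:88819520-88819538). Alg12 may thus share that copy and not be a separate case.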
